A study of Mus musculus with 12 samples.

Results

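The genes of the proteasome, with the factors that assemble it and the particles that activate it, were examined in the lungs of male and female mice after 48 h of hyperoxia. The members were all probe clusters whose only platform symbol started with Psma, Psmb, Psmc, Psmd, Psme, Psmf or Psmg and a digit, leaving out Psmb8 and Psmb9 and adding Pomp. This rule gave 49 genes of 19938 genes named by 1 symbol, measured by 55 of 35556 clusters, and the cluster with the highest mean was used for each gene. Psmc3ip and Psme3ip1 carry the naming pattern without being proteasome subunits, so 47 genes had a role in the complex: 8 in the core alpha ring, 9 in the core beta ring, 6 in the cap ATPase ring, 11 in the rest of the cap, 4 in activators, 1 inhibitor or adaptor (Psmf1) and 8 in assembly.

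The study compared 4 groups of wild type C57BL/6J mice aged 8 to 10 weeks, which were female mice in room air, female mice in hyperoxia (FiO2 above 95%), male mice in room air and male mice in hyperoxia. Each group had 3 Affymetrix Mouse Gene 1.0 ST arrays, and each array held lung RNA pooled from 4 mice, so the errors below come from the spread between pools and not between single animals. The SE of a log2 fold change is limma's, from 1 spread per gene that the 4 groups share and that is drawn toward that of all clusters. It is therefore the same in females and males. No mouse carried a transgene or a deletion. Values are log2 expression after robust multichip averaging (RMA), and a difference of 1 is a 2-fold change.

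The proteasome is the barrel-shaped protease that degrades proteins marked with ubiquitin. Its core is built from stacked alpha and beta rings, of which the beta subunits Psmb5, Psmb6 and Psmb7 cut the substrate, while the regulatory cap binds ubiquitin, removes it and unfolds the substrate with a ring of ATPases. Interferon gamma induces alternative catalytic subunits, such as Psmb10 in the place of Psmb7, and the activator pair Psme1 and Psme2, which together favour peptides for antigen presentation. Oxidised proteins are substrates of the core, and the transcription factors NFE2L1 and NFE2L2 (NRF2) are known to drive proteasome genes through antioxidant response elements.

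Median log2 values of the 12 arrays lay between 8.12 and 8.20, and arrays correlated at r of 0.969 to 0.995 over all clusters. Markers of alveolar epithelium averaged 12.32 to 12.78 and endothelial markers 11.02 to 11.97 over the arrays, so lung RNA was present on each. Markers of squamous epithelium, which lung parenchyma lacks, averaged 7.68 to 10.71 over 13 genes, and female room air 1, female room air 3 and female hyperoxia 1 were the highest at 10.47, 9.92 and 10.71. The female counts, the medians of the core and the cap and the changes of the main female genes are also given without those 3 arrays, while the other female values include them. Of the members, Psma8, the testis form of an alpha subunit, was the single gene with a mean under 7, and 17.8% of all clusters were dimmer than it.

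The log2 fold change of hyperoxia against room air was positive in 38 of 49 proteasome genes in females and 44 in males, and part of them passed the test. It was positive in 15990 of all 35556 clusters in females and 17608 in males. In females, 15 of the 49 genes were higher (limma with Benjamini-Hochberg adjustment over all clusters, threshold 0.05) and 2 were lower, where 9.08% of all clusters were higher and 8.62% lower. In males, 22 were higher and 2 lower, where 10.0% of all clusters were higher and 9.30% lower. The remaining 32 genes in females and 25 in males did not pass. The median log2 fold change over the members was 0.13 in females and 0.20 in males, against -0.02 and 0.00 over all clusters. The female count was 9 without female hyperoxia 3, and 2 without the 3 arrays richest in squamous markers, which leaves 1 female room air array. In that smaller set the log2 fold change of Psmd8 in females was 0.76, the log2 fold change of Psme3 in females was 0.46 and the log2 fold change of Psmb10 in females was -0.53, and these had an adjusted p under 0.05. The log2 fold change of Psmb5 in females was 0.38, the log2 fold change of Psmb6 in females 0.35, the log2 fold change of Psmb7 in females 0.22 and the log2 fold change of Psme2 in females -0.22, and these did not. That fit takes the spread of the lone female room air array from the other groups. The median there was 0.15 over the members, 0.15 over the 14 core subunits and 0.29 over the 17 cap genes in females. The male count was 12 without either male hyperoxia 1 or male hyperoxia 2, 13 without male room air 1 and 14 without male room air 3.

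The changes were below the 1.4-fold threshold used in the study for nearly all members. Psmd8 was the single member higher by at least 1.4-fold in females, where 3.59% of all clusters were, and Psmb10 the single member lower by that much, where 2.93% of all clusters were. In males, Psmd8 and Psmd14 were higher, against 3.94% of all clusters, and Psmb10 was lower, against 3.39%.

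The 15 genes that rose in both sexes were Psma3, Psma6, Psmb4, Psmb5, Psmb6, Psmb7, Psmc4, Psmd2, Psmd3, Psmd4, Psmd7, Psmd8, Psmd11, Psmd12 and Psme3. Psmb10 and Psme2 fell in both. The share of all clusters that rose or fell in both sexes was not counted. Psma4, Psmc1, Psmc5, Psmc6, Psmd1, Psmd13 and Psmd14 passed in males and not in females, and no gene passed in females alone. All 3 hyperoxia arrays lay above all 3 room air arrays for 23 members in females and 28 in males, 22 of them in both, where 14.7% and 16.2% of all clusters did so. They lay below for 2 members in females and 3 in males, where 15.7% and 16.7% of all clusters did so. Of the 19938 genes named by 1 symbol, they lay above for 3614 in females and 4038 in males, and below for 3859 and 3938. The log2 fold change had the same sign in both sexes for 43 of 49 members, and the share of all clusters with the same sign was not counted.

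**Figure D1:**
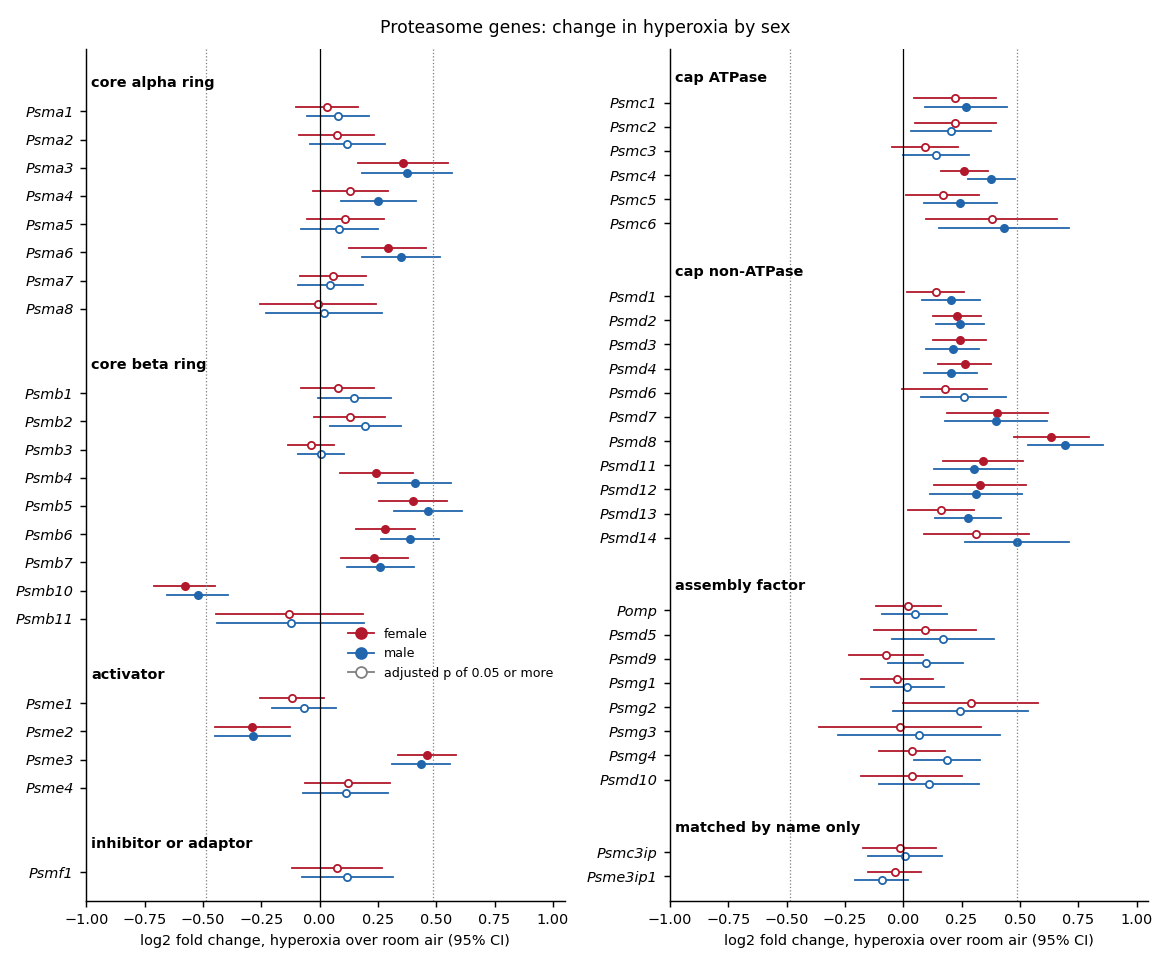
Change from room air to hyperoxia, as log2 fold change (x axis), for each of the 49 proteasome genes, ordered by role, in females (red) and males (blue). Lines are 95% confidence intervals, filled points have an adjusted p under 0.05, and dotted lines mark a 1.4-fold change. All 17 cap genes lie right of 0 in both sexes, and Psmb10 and Psme2 lie left of it.

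Promoter sequence, as 250 bases before to 50 after the gene start in RefSeq (GRCm38.p6), was at hand for 41 of the 49 genes. The antioxidant response element core TGACNNNGC, searched on both strands, was in 6 of the 41 (14.6%), namely Psmb5, Psmb6, Psmc6, Psmd9, Psmd12 and Psme4, against 13.99% of 27025 genes in the table. The interferon-stimulated response element core, GAAA then any 2 bases then GAAA and also on both strands, was in 5 of the 41 (12.2%), namely Psmb3, Psmd4, Psmd9, Psme1 and Psmg4, against 3.99% of the table. Psmd9 held both, at separate places. Shown first are the windows of Psmb5, Psmb6 and Psmd12, which rose in both sexes. Then come Psmc6, which passed in males, and Psme4 and Psme1, which passed in neither. Left out are Psmd9, Psmb3 and Psmg4, which passed in neither sex, and Psmd4, which rose in both. Whether a motif goes with a change was not tested. Capitals mark the motif, and each strand is that of the gene, 5′ to 3′.
Psmb5 (chr14:54618014-54618062, minus strand, motif starting 47 bases before the gene start): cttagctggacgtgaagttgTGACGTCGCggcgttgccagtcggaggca
Psmb6 (chr11:70525328-70525366, plus strand, motif starting 9 bases before the gene start): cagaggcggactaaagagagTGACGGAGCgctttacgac
Psmd12 (chr11:107479278-107479309, plus strand, motif starting 247 bases before the gene start, read as its reverse complement): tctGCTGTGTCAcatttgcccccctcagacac
Psmc6 (chr14:45329577-45329625, plus strand, motif starting 227 bases before the gene start, read as its reverse complement): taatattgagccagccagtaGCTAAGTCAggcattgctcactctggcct
Psme4 (chr11:30771748-30771784, plus strand, motif starting 7 bases before the gene start and running past it, read as its reverse complement): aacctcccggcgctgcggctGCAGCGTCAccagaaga
Psme1 (chr14:55578493-55578522, plus strand, interferon motif from transcribed base 10, read as its reverse complement): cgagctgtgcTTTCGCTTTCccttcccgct

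The genes that passed the 1.4-fold threshold in both sexes, Psmd8 upward and Psmb10 downward, held neither motif in the window. Their 100 bases before the RefSeq gene start follow, both on the minus strand, as these members moved farthest in opposite directions. Whether that start is the one used in the lung was not tested.
Psmd8 (chr7:29180674-29180773): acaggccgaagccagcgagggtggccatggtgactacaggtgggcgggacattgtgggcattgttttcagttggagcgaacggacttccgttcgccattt
Psmb10 (chr8:105938393-105938492): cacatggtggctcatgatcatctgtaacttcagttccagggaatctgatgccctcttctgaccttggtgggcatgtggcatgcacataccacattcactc

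The regulatory cap was higher in hyperoxia in both sexes. All 17 of its genes had a positive log2 fold change in both sexes, with medians of 0.24 in females and 0.27 in males. Of all 35556 clusters, 15990 were positive in females and 17608 in males. Of the 17 genes, 8 passed in females and 14 in males, none of them lower, where 9.08% and 10.0% of all clusters were higher. Averaged over the 17 genes and taken against the mean of the 6 room air arrays, the cap stood at 0.26 to 0.32 on the female hyperoxia arrays and 0.26 to 0.30 on the male hyperoxia arrays, while room air arrays ran from -0.04 to 0.09 in females and -0.10 to 0.06 in males. The groups did not overlap, and on each of the 6 hyperoxia arrays 17 of the 17 genes lay above their room air mean. In the same measure the 14 core subunits that are not tissue-restricted or inducible stood at 0.16 to 0.24 in female hyperoxia and 0.16 to 0.22 in male hyperoxia, against 0.01 to 0.05 and -0.09 to 0.05 in room air.

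**Figure D2:**
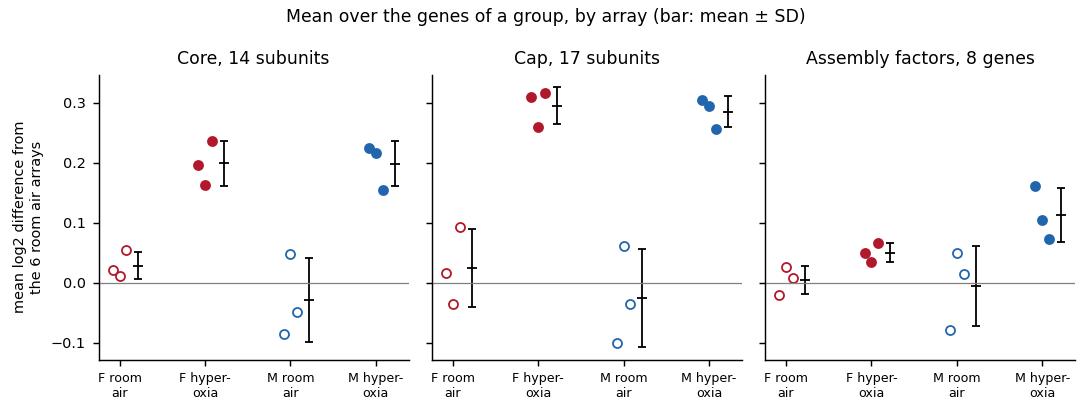
Mean log2 difference from the 6 room air arrays (y axis) over 14 core subunits (without Psma8, Psmb10 and Psmb11), 17 cap genes and 8 assembly factors, with 1 point an array and the mean ± SD of 3 arrays beside them, for room air (open) and hyperoxia (filled) in females (red) and males (blue). In the cap and the 14-subunit core, hyperoxia arrays lie above every room air array. The assembly factors run from 0.03 to 0.07 in female hyperoxia and 0.07 to 0.16 in male hyperoxia, against a highest room air array of 0.05.

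Psmd8, a subunit of the cap's lid, had the largest rise of the members in both sexes. Its female log2 values were 10.61, 10.47 and 10.74 in room air and 11.26, 11.18 and 11.28 in hyperoxia. Its male values were 10.43, 10.57 and 10.52 in room air and 11.17, 11.22 and 11.21 in hyperoxia. The groups did not overlap in either sex. The log2 fold change was 0.63 ± 0.07 (SE, n = 3 pools a group) in females, 1.55-fold (limma adjusted p = 1.8e-04), and 0.69 ± 0.07 in males, 1.62-fold (limma adjusted p = 8.86e-05). It remained past both thresholds when any single array was left out.

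Psmd14, the deubiquitinase of the cap that cleaves ubiquitin from the substrate, read 10.89, 10.96 and 11.12 in female room air and 11.34, 11.20 and 11.38 in female hyperoxia. In males it read 10.63, 11.01 and 10.70 in room air and 11.28, 11.28 and 11.24 in hyperoxia. Hyperoxia arrays were all above room air arrays in both sexes, and male room air 2 lay closest to them. The log2 fold change was 0.49 ± 0.10 in males (1.40-fold, limma adjusted p = 0.00616) and 0.31 ± 0.10 in females (1.24-fold, limma adjusted p = 0.0585). The male call changed with the arrays used. It fell under 1.4-fold without male room air 1 or 3 or male hyperoxia 1 or 2, over a range of 0.41 to 0.60 across all single arrays left out, and the difference between the sexes did not pass its own test.

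Among the other lid and base subunits, Psmd7, the partner of Psmd14, rose by a log2 difference of 0.40 ± 0.10 in each sex. The lid subunits Psmd11 and Psmd12 rose by 0.34 and 0.33 in females and by 0.30 and 0.31 in males. The scaffold subunit Psmd2, the ubiquitin receptor Psmd4 and the lid subunit Psmd3 rose by 0.20 to 0.26 in both sexes. Psmd1, the other scaffold subunit, and the lid subunit Psmd13 had log2 fold changes of 0.14 and 0.16 in females, which did not pass, and of 0.20 and 0.28 in males, which did. Psmd6 had 0.18 and 0.26 and was the single non-ATPase gene of the cap that passed in neither sex.

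Of the 6 ATPases, which unfold the substrate and feed it into the core, Psmc4 passed in both sexes, by 0.26 ± 0.05 in females (limma adjusted p = 0.00245) and 0.38 ± 0.05 in males (limma adjusted p = 2.3e-04). Psmc1, Psmc5 and Psmc6 passed in males, with log2 fold changes of 0.27, 0.24 and 0.43, while in females theirs were 0.22, 0.17 and 0.38. A dimmer cluster of Psmc1 gave 0.24 in females and 0.30 in males and did not pass in males (limma adjusted p = 0.235). The male call of Psmc1 therefore depends on the cluster. Psmc2 and Psmc3 passed in neither sex, at 0.22 and 0.09 in females and 0.21 and 0.14 in males. Psmc6 had the largest values of the ring and also its widest error, with an SE of 0.13.

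In the core, part of the genes were higher and none of the standard subunits was lower. Of the 14 subunits outside the tissue-restricted and inducible forms, 6 passed in females and 7 in males, all higher. Among all clusters 9.08% were higher in females and 10.0% in males. The median log2 fold changes of the 14 subunits were 0.13 and 0.22. In the alpha ring, which gates the barrel, Psma3 rose by 0.36 ± 0.09 in females and 0.38 ± 0.09 in males, Psma6 rose by 0.29 and 0.35, and Psma4 had 0.13 in females and 0.25 in males, where it passed. The other alpha genes, Psma1, Psma2, Psma5, Psma7 and Psma8, had log2 fold changes between -0.01 and 0.12 and passed in neither sex. Psma3 was measured by 3 clusters, which gave 0.33 to 0.37 in females and 0.33 to 0.38 in males. Psma5 was measured by 2, and the dimmer of them gave 0.32 in males (limma adjusted p = 0.0144) where the brighter gave 0.09, so its call depends on the cluster.

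The 3 catalytic subunits of the standard core rose together. Psmb5, which has chymotrypsin-like activity, read 11.85, 11.95 and 11.84 in female room air and 12.18, 12.38 and 12.28 in female hyperoxia. Its male values were 11.92, 11.79 and 11.83 in room air and 12.32, 12.33 and 12.28 in hyperoxia. The groups were apart in both sexes, and Psmb5 rose by 0.40 ± 0.07 in females (1.32-fold, limma adjusted p = 0.00172) and 0.46 ± 0.07 in males (1.38-fold, limma adjusted p = 6.27e-04). Without male room air 1, the log2 fold change of Psmb5 in males was 0.50, past 1.4-fold.

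Psmb6, which has caspase-like activity, read 10.21, 10.15 and 10.21 in female room air and 10.42, 10.51 and 10.48 in female hyperoxia. In males it read 10.10, 10.17 and 10.14 in room air and 10.51, 10.61 and 10.45 in hyperoxia. It rose by 0.28 ± 0.06 in females and 0.39 ± 0.06 in males, with no overlap of groups. Psmb7, which has trypsin-like activity, read 10.09, 10.15 and 10.21 in female room air and 10.41, 10.28 and 10.47 in female hyperoxia. Its male values were 9.97, 10.12 and 10.06 in room air and 10.32, 10.33 and 10.29 in hyperoxia. Its rise was the smallest of the 3, at 0.23 ± 0.06 in females (limma adjusted p = 0.0295) and 0.26 ± 0.06 in males (limma adjusted p = 0.0164), again with groups apart.

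Of the structural beta subunits, Psmb4 rose by 0.24 in females and 0.41 in males. Psmb1 and Psmb2 had log2 fold changes of 0.08 and 0.13 in females and 0.15 and 0.20 in males and did not pass. Psmb3 had -0.04 and 0.01 with an SE of 0.04, and a second cluster of the gene gave -0.01 and 0.06.

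Psmb10, the inducible subunit that takes the place of Psmb7, moved the other way. It read 10.47, 10.41 and 10.44 in female room air and 9.82, 9.91 and 9.85 in female hyperoxia. In males it read 10.30, 10.40 and 10.26 in room air and 9.88, 9.75 and 9.76 in hyperoxia. Every hyperoxia array lay below every room air array of its sex. In females Psmb10 fell by 0.58 ± 0.06 on the log2 scale, to 0.670 of the room air level (limma adjusted p = 8.8e-05), and by 0.52 ± 0.06 in males, to 0.696 (limma adjusted p = 1.48e-04). The male change was -0.48, just short of 1.4-fold, without male room air 2. Psmb11, the thymus subunit, read 7.25, 7.53 and 7.07 in female room air, 6.999, 7.39 and 7.08 in female hyperoxia, 7.63, 7.25 and 7.47 in male room air and 7.42, 7.22 and 7.34 in male hyperoxia. Its groups overlapped, and its changes of -0.13 and -0.12 did not pass.

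Taken within each array, the log2 value of Psmb10 minus that of Psmb7 changed by -0.81 in females and -0.78 in males. The difference ran from 0.24 to 0.38 in female room air and -0.62 to -0.37 in female hyperoxia, and from 0.20 to 0.32 in male room air and -0.58 to -0.44 in male hyperoxia. An exact two-sided permutation test of treatment within sex (400 arrangements) gave p = 0.005, the smallest it can give, and the adjusted value over the 3 pairs tested was 0.005. Since Psmb10 and Psmb7 each separate the groups on their own, in opposite directions, that value is no evidence beyond theirs. Levels of different clusters are not on one scale, so the change in the difference is read and not its sign.

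**Figure D3:**
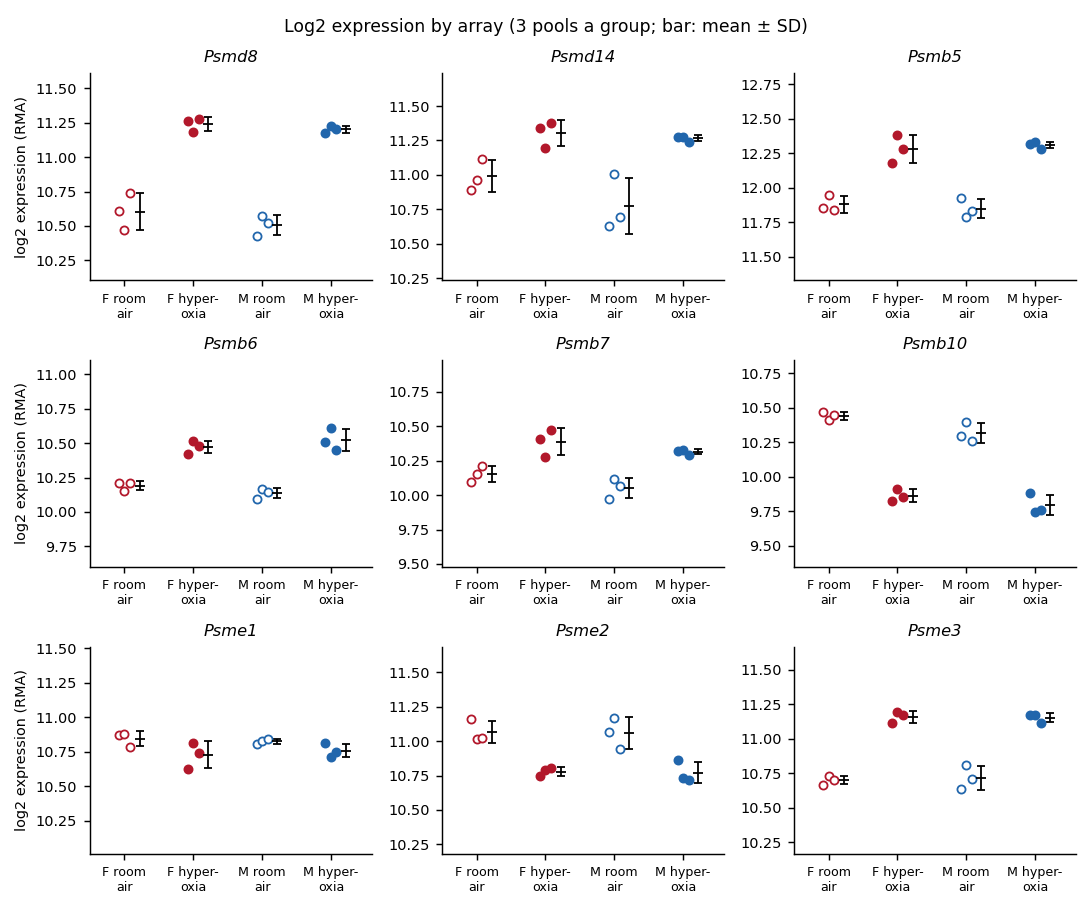
Log2 expression (y axis, each panel with the same span and its own centre) of 9 proteasome genes, with 1 point an array and the mean ± SD of 3 arrays beside them, for room air (open) and hyperoxia (filled) in females (red) and males (blue). Psmd8, Psmd14, Psmb5, Psmb6, Psmb7 and Psme3 lie higher in hyperoxia with no overlap, Psmb10 and Psme2 lie lower with no overlap, and Psme1 overlaps.

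The activators, which open the gate of the core without ubiquitin, moved in both directions. Psme3, the nuclear activator, read 10.67, 10.73 and 10.70 in female room air and 11.11, 11.19 and 11.17 in female hyperoxia. Its male values were 10.64, 10.81 and 10.71 in room air and 11.17, 11.17 and 11.11 in hyperoxia. The groups were well apart, and Psme3 rose by 0.46 ± 0.06 in females (1.38-fold, limma adjusted p = 2.87e-04) and 0.43 ± 0.06 in males (1.35-fold, limma adjusted p = 3.74e-04).

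Psme2, a partner in the interferon-inducible activator pair, read 11.16, 11.02 and 11.02 in female room air and 10.74, 10.79 and 10.80 in female hyperoxia. In males it read 11.07, 11.17 and 10.94 in room air and 10.86, 10.73 and 10.72 in hyperoxia. It fell by 0.29 ± 0.07 in both sexes (limma adjusted p = 0.0183 for females, 0.0174 for males), with no overlap of its groups. Its partner Psme1 read 10.87, 10.88 and 10.78 in female room air, 10.62, 10.82 and 10.74 in female hyperoxia, 10.81, 10.83 and 10.84 in male room air and 10.81, 10.71 and 10.75 in male hyperoxia. Its groups overlapped, and the changes of -0.12 and -0.07 did not pass (limma adjusted p = 0.262 and 0.615). Psme4, an activator of the nucleus known for acetylated histones, read 10.78, 10.71 and 10.87 in female room air, 11.004, 10.76 and 10.96 in female hyperoxia, 10.73, 10.91 and 10.69 in male room air and 10.89, 10.93 and 10.85 in male hyperoxia. Its groups also overlapped, with changes of 0.12 and 0.11 that did not pass.

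Set against the inducible pair within each array, Psme3 minus Psme2 changed by 0.75 in females and 0.72 in males, and Psme3 minus Psme1 by 0.58 and 0.50. The exact permutation test gave p = 0.005 for each, adjusted p = 0.005 over the 3 pairs, with room air and hyperoxia groups apart in both sexes. Psme3 alone already separates the groups, so these values too add nothing independent. Psmf1, which inhibits the core in the test tube, had changes of 0.07 and 0.12 and did not pass.

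Assembly factors are chaperones that build the core and the cap and leave the finished particle. None of the 8 passed in either sex by limma, and at an unadjusted p under 0.05 the counts were 0 in females and 1 in males, where 27.0% and 28.0% of all clusters were. Their medians were 0.03 and 0.10. Averaged over the 8 genes, the male hyperoxia arrays, at 0.07 to 0.16, lay above every room air array. Female hyperoxia arrays, at 0.035 to 0.066, lay above the female room air arrays, at -0.021 to 0.027, and overlapped the male room air arrays. Pomp, the chaperone that matures the core and is degraded by it, read 9.68, 9.87 and 9.75 in female room air and 9.80, 9.84 and 9.74 in female hyperoxia. In males it read 9.76, 9.85 and 9.76 in room air and 9.89, 9.82 and 9.82 in hyperoxia. The groups overlapped, with changes of 0.02 ± 0.06 and 0.05 ± 0.06. Psmg2, a chaperone of the alpha ring, had the largest changes of the 8, at 0.29 and 0.24 with an SE of 0.13. Psmg1, Psmg3 and Psmg4, the other core chaperones, and Psmd5, Psmd9 and Psmd10, the cap chaperones, lay between -0.07 and 0.19. Psmc3ip, a meiotic recombination protein, and Psme3ip1, neither of them a proteasome subunit, lay between -0.09 and 0.01.

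**Figure D4:**
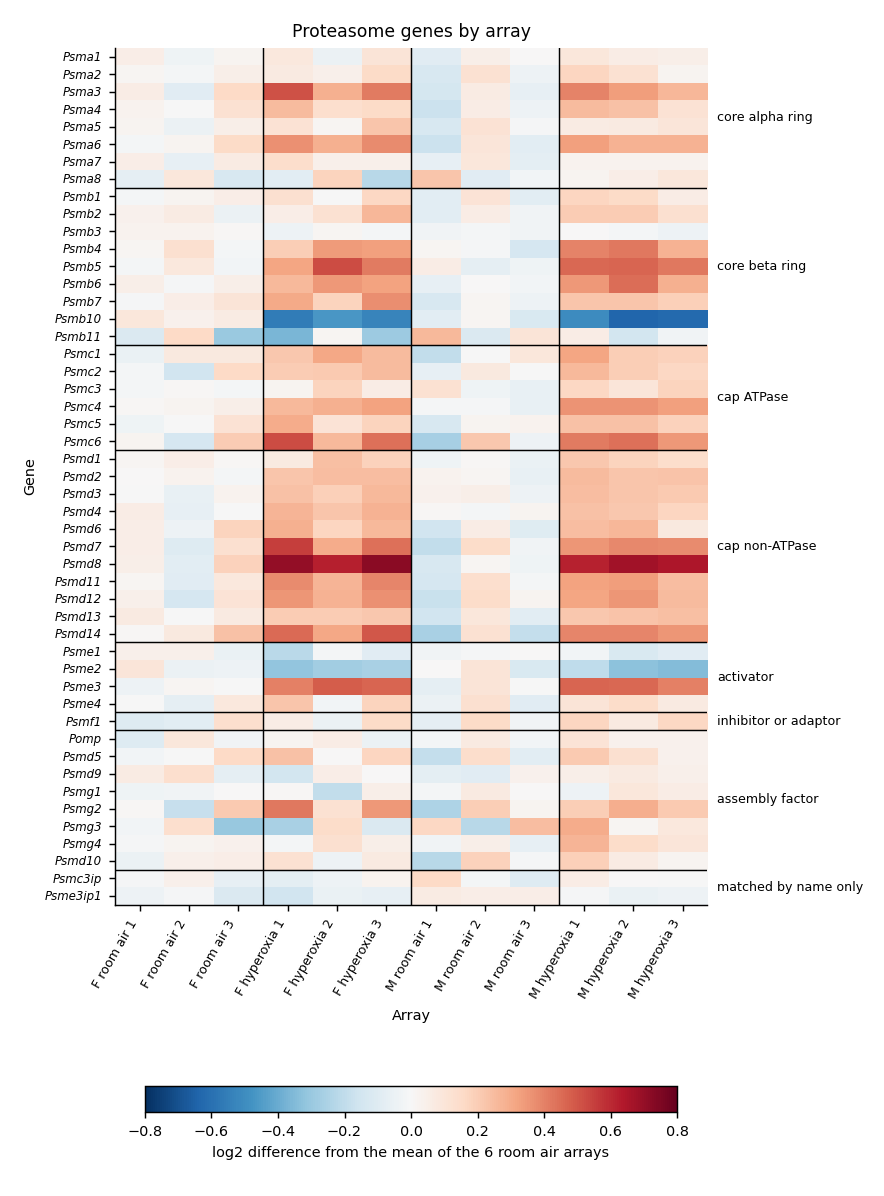
Log2 difference of each of the 49 genes (rows, by role) from its mean over the 6 room air arrays, on each of 12 arrays (columns, F female and M male), with red higher and blue lower. The 6 hyperoxia arrays are red across the cap, Psmb4 to Psmb7 and Psme3, and blue at Psmb10 and Psme2.

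The size of the response did not differ detectably between the sexes for any member. The male log2 fold change was above the female one in 37 of 49 genes, with a median difference of 0.05 and a median SE of 0.10, and the interaction was positive in 19208 of all 35556 clusters. No member passed limma's interaction test after adjustment, and 0% of all clusters did. No member had an unadjusted value under 0.05 either. Psmc4 came nearest, with a difference of 0.12 ± 0.06 on the log2 scale (limma adjusted p = 1). The genes that passed in males alone are therefore not shown to differ by sex. No proteasome gene passed limma's test of males against females within room air (0 members against 0.0141% of all clusters, and 1 at an unadjusted p under 0.05, Psme3ip1). None passed within hyperoxia either (0 members against 0.0169%, and 0 at an unadjusted p under 0.05). In room air the male minus female difference was negative in 36 of 49 members, 14 of the 14 standard core subunits among them, while it was positive in 20473 of all 35556 clusters. In hyperoxia it was negative in 24 of 49 members. The largest room air difference, male minus female, was -0.21 for Psmd14 (limma adjusted p = 1).

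Of the genes that work with the proteasome, part were higher. Of 18 measured ubiquitin and proteasome partners, 8 were higher in females and 9 in males and none was lower. Among all clusters 9.08% were higher in females and 10.0% in males, and 8.62% and 9.30% were lower. Rad23b, a shuttle that carries ubiquitinated proteins to the cap, rose by 0.60 ± 0.07 and 0.66 ± 0.07. Uchl5 and Usp14, deubiquitinases bound to the cap and named here after their values were seen, rose by 0.42 and 0.41 in females and by 0.41 and 0.43 in males. The segregase Vcp, also named after the fact, had -0.08 and -0.10 and did not pass. All 8 subunits of the chaperonin TRiC, which folds actin and tubulin, were higher in both sexes, with medians of 0.46 and 0.50 and up to 0.74 for Cct3 in males. In females, 7 of 13 heat shock genes were higher and 0 lower, and in males 6 were higher and 2 lower. Hspa1a had 0.97 and 0.63, and the chaperonin gene Hspd1 had 0.60 and 0.74.

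Of 8 regulators of proteasome genes, 4 were higher in females and 3 in males, where 9.08% and 10.0% of all clusters were. Nfe2l1, the factor that restores proteasome genes when the protease is inhibited, had 0.15 ± 0.05 and 0.09 ± 0.05 and passed in neither sex. Nfe2l2 rose by 0.26 ± 0.07 in females (limma adjusted p = 0.0361) and had 0.22 in males (limma adjusted p = 0.0639). The small Maf partners moved most, Maff by 1.92 and 1.98 and Mafk by 1.10 and 0.96. Targets of NFE2L2 rose in 15 of 20 genes in females and 16 of 20 in males, with medians of 0.75 and 0.79, and Slc7a11, the cystine carrier, had the largest values at 3.14 and 3.21.

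Of the members that interferon gamma is known to induce, Psmb10 and Psme2 fell, while Psme1, at -0.12 in females and -0.07 in males, did not pass. Other interferon gamma and antigen processing genes fell in 8 of 17 in each sex and rose in 1 of 17, Cxcl10. Whether the members and this list share a cause was not tested. Among all clusters 8.62% fell in females and 9.30% in males. The medians of the list were -0.25 and -0.24. Gbp7 and Gbp3, guanylate-binding proteins induced by interferon, fell by log2 differences of 1.24 and 1.00 in females, while the male falls were -1.38 and -1.01. Ciita, the master regulator of class II presentation, fell by 0.65 and 0.66. The peptide transporter gene Tap1, named after its value was seen, had -0.10 and -0.15 and did not pass.

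**Figure D5:**
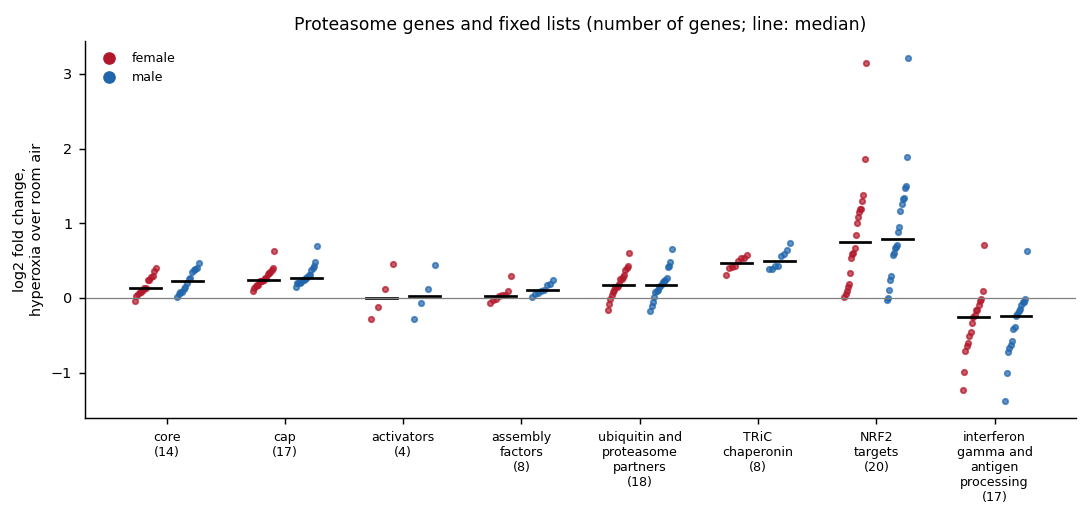
Change from room air to hyperoxia, as log2 fold change (y axis), of each gene in the proteasome roles and in 4 other gene lists, with the number of genes in brackets, females in red and males in blue, points spread sideways by rank and a line at the median. The core here is the 14 subunits without Psma8, Psmb10 and Psmb11. Medians of the cap are 0.24 and 0.27, those of TRiC 0.46 and 0.50, and those of the interferon gamma list -0.25 and -0.24.

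These are whole lung samples, in which fewer cells of a type and less RNA per cell cannot be told apart. Endothelial markers fell in 6 of 10 genes in females and 7 of 10 in males, and alveolar epithelial markers in 7 of 10 and 6 of 10, with 1 higher in each sex. Neutrophil markers fell in 6 of 10 genes in males and in none in females, where 1 rose, and their mean went from 8.61 to 9.23 in male room air to 7.89 to 8.04 in male hyperoxia, against 8.16 to 8.83 and 8.16 to 8.45 in females. B cell markers fell in 6 of 8 genes in males and in none in females. Their means were 8.94 to 9.35 in male room air and 8.49 to 8.65 in male hyperoxia, against 9.06 to 9.29 and 8.67 to 9.01 in females. No neutrophil or B cell marker passed limma's interaction test after adjustment. Unadjusted, 7 of 10 and 2 of 8 were under 0.05, where 516 of all 35556 clusters were. In room air all 10 neutrophil markers were higher in males, by a median of 0.60, and none passed after adjustment. T cell markers fell in 1 of 9 in females and 2 of 9 in males. Among all clusters the share that fell was 8.62% in females and 9.30% in males, so the female T cell count is near it. Psmb10 changed by -0.58 in females and -0.52 in males and Psme2 by -0.29 in each, and the part of these markers in the proteasome changes was not tested. Squamous markers passed in 0 of 13 genes in either sex (limma, with 0 at an unadjusted p under 0.05), and with their level as a covariate 15 members were higher in females and 23 in males.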

How the data were processed

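Lung RNA was measured on 12 Mouse Gene 1.0 ST arrays, 3 for each of 4 groups, with 4 mice pooled for each array. The authors deposited 1 table of log2 expression values after RMA background correction, quantile normalization and summarization per cluster, made with software of a version that the sources used here do not name. RMA narrows small changes and gives no counts, and precision is limited by how many arrays there are. Of 35556 clusters, 21789 carried 1 symbol in the platform annotation, 1621 several and 12146 none, and 1 cluster with several symbols fitting the name pattern was not used.

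All clusters were fitted with limma 3.58.1 in R 4.3.3 (4 group means, contrasts, empirical Bayes), with Benjamini-Hochberg adjustment over all clusters in a contrast. As in the study's methods, a gene was called at an adjusted p under 0.05 and a fold of at least 1.4. Members, roles, lists and rules were chosen with earlier results of these data known, so counts and medians of a list are descriptions, and the interferon motif was added after the data were seen. Values per array are given for members called in either sex, the 3 highest and 3 lowest mean changes, Psmb5, Psmb6, Psmb7, Psmb10, Psme1 to Psme4 and Pomp. From the other lists up to 4 genes called in both sexes could be named, with Nfe2l1 and Nfe2l2. Scripts were tested on simulated data, and 17 alternatives were run. Motifs were searched in RefSeq promoters (GRCm38.p6), which were matched by symbol and found for 41 of the 49 genes. In a separate RefSeq gene list all 49 were matched by gene ID, and the motif search did not use that list. Female arrays of the same replicate number deviated together from their group means (r of 0.283, 0.698 and 0.465). The labels name no pairs, and the main fit and the permutation tests used none. A block of these numbers among the female arrays was fitted only as an alternative.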

Additional observations from a re-analysis of the deposited data

How the results depend on the processing

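Arrays hold pools and number 3 a group, so differences under about 0.2 on the log2 scale often did not pass. The count of members called, 2 in females and 3 in males, was 17 and 24 with no fold threshold, 0 and 0 at a fold of at least 2, and 0 and 0 when limma's treat tested against 1.4-fold. When 1 array was left out the count was 2 in females and 2 to 3 in males, but its members changed in males, where Psmd14 was lost in 4 fits and Psmb10 in 1, and Psmb5 was gained without male room air 1. The count of members higher at an adjusted p under 0.05, 15 in females and 22 in males, became 8 and 9 at 0.01, 7 and 12 with each sex fitted alone, and 31 in females with array weights, whose fit stopped before converging. It ranged from 9 to 18 in females and 12 to 23 in males when 1 array was left out. The count lower, 2 in each sex, became 1 and 1 at 0.01, 1 in males fitted alone, and 1 to 2 in each sex when 1 array was left out, with 1 without female room air 1, female hyperoxia 1, male room air 2, male hyperoxia 2 or male hyperoxia 3. Without the 3 arrays richest in squamous markers, 2 members were higher and 1 lower in females, and the median of the assembly factors in females was -0.036. That set has fewer samples.

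Medians moved with array weights for the core in females (0.19), all members in females (0.18) and the assembly factors in males (0.15), and with arrays centred on the median for the activators (0.041 in females, 0.066 in males) and all members in males (0.25). The cause was not tested. The log2 fold change of Pomp in females ranged from -0.023 to 0.074 when 1 array was left out, and it reversed in sign to -0.0017 without female hyperoxia 2, -0.023 without female room air 1 and -0.087 without the 3 arrays richest in squamous markers, and it passed in no setting. The median of all clusters ran from -0.02 to 0.041 over the scalings.

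With the replicate block over all arrays, 2 members were called in females and 3 in males, with 13 and 17 higher and 2 lower in each. With the replicate block among the female arrays alone, chosen after the data were seen, 2 members were called in females, with 15 higher and 2 lower, and no call of a named female gene changed. In males the same-numbered arrays correlated at -0.168, 0.33 and 0.231 in their deviations from the group means and were not taken as pairs.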
